A study of Mus musculus with 42 samples.

Results

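The 9 genes described here, Defa21, Defa22, Defa24, Lyz1, Mmp7, Mptx1, Mptx2, Itln1 and Ang4, encode antimicrobial products of the Paneth cell or an enzyme that processes them. They were taken by symbol from 22180 genes measured with a probe set that names 1 gene. A gene with more than 1 such probe set was represented by its brightest on average. All 9 were measured, and no filter on low values was applied.

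Paneth cells sit between the stem cells at the base of small intestinal crypts and release granules that hold antimicrobial peptides, lectins and enzymes. In the mouse, alpha-defensins (also called cryptdins) are stored as propeptides and cut to their active form by matrilysin, the product of Mmp7. Paneth cells depend on Wnt signalling and on the transcription factor Sox9. Mouse colon and stomach are not known for Paneth cells in health, although some of these genes are also used by other secretory cells, such as goblet cells.

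The study hybridised RNA of 42 epithelial samples from stomach outlet, small intestine and colon to Affymetrix arrays, and the samples fall into 15 groups. All mice were healthy, untreated adults of at least 7 to 8 weeks, not selected for sex. In the Lgr5-EGFP-IRES-CreERT2 line (IRES below) and the Lgr5-EGFP-DTR line (DTR below), green fluorescent protein is made from the Lgr5 locus, so brightness of a sorted cell follows transcription of the stem cell gene Lgr5. Every sorted group in these lines therefore carries the reporter allele, and no group was given tamoxifen or diphtheria toxin. The IRES small intestine gave 2 crypt samples, 2 samples of bright cells (Lgr5Hi), 2 of dim cells (Lgr5Lo) and 1 unsorted sample. From the IRES colon came 3 samples of Lgr5Hi cells, 3 of Lgr5Lo cells and 2 of unsorted tissue. The IRES pylorus, the outlet region of the stomach, gave 4 Lgr5Hi, 4 Lgr5Lo and 2 unsorted samples. The DTR pylorus gave 3 samples each of Lgr5Hi, Lgr5Lo and non-fluorescent (Lgr5Neg) cells. Pylorus of wildtype mice (WT) was stained with an antibody to Aqp5, a water channel, and gave 4 Aqp5Pos and 4 Aqp5Neg samples. The labels give the gland isolation and sort for pylorus only, so how small intestine and colon were prepared is not stated in the sources used here.

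Levels are log2 intensities, and array medians lay between 3.82 and 4.25. The table carries no detection calls, so a level near or under these medians is close to background, and a difference from it understates the true one. Levels of different genes come from different probes and are not compared with each other. Each group's samples are called biological replicates in the labels. In a bulk sample, fewer Paneth cells and less transcript per cell cannot be told apart.

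The labels were checked against markers. Lgr5 followed the gates in small intestine and DTR pylorus. It averaged 8.34 in small intestinal Lgr5Hi cells and 5.86 in Lgr5Lo cells, and 8.73 in DTR Lgr5Hi cells, 6.59 in Lgr5Lo cells and 4.60 in Lgr5Neg cells. For IRES colon and pylorus, the mean of 6 stem cell markers, Lgr5 among them, is given instead. This mean was 7.18 in Lgr5Hi and 6.23 in Lgr5Lo cells of colon, and 7.34 and 6.24 in those of pylorus. The array labelled IRES whole colon replicate 1 went against its label, with 13.12 for the gastric gene Gkn1 and 4.39 for the mucin gene Muc2, against 4.92 and 10.83 in replicate 2. It stays in the IRES fit, and results that turn on it are given with and without it. For the 9 DTR arrays, the field for the mouse model names the IRES line, and the title was followed.

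Upstream sequence was read for the members whose pattern differed most or least. Of the 9 genes, 8 had a promoter window in RefSeq (GRCm38.p6), and Defa24 had none. The 3 defensin genes lie in 1 cluster on chromosome 8, Defa21 at chr8:21025545-21026517, Defa22 at chr8:21162277-21163249 and Defa24 at chr8:21734494-21735471. The 120 bases before the start of Defa21 (plus strand, chr8:21025425-21025544) were the same, letter for letter, as those before Defa22 (plus strand, chr8:21162157-21162276). Capitals mark TATAAA, the TATA box, and TCAAAG, which is CTTTGA, the core of the TCF and LEF site, read on the other strand.
Defa21 and Defa22: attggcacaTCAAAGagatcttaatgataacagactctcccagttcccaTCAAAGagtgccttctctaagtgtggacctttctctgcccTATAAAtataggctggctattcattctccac
Mucosal pentraxin genes Mptx1 (plus strand, chr1:174330398-174330517) and Mptx2 (minus strand, chr1:173277757-173277876) are shown because they are a related pair with different levels along the gut. TTTATA in capitals is TATAAA on the other strand.
Mptx1: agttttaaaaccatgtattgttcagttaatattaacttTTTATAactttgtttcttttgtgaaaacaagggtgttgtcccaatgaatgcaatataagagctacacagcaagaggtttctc
Mptx2: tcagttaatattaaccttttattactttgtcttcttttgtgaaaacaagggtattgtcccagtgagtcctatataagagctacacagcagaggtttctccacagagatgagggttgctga

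Over the 250 bases before the start, the Defa21 and Defa22 windows were 100% identical, and those of Mptx1 and Mptx2 were 72.8% identical in a global alignment. The remaining pairs of members with 1 window each shared 42.3% to 48.9%. Motifs were searched on both strands of these 250 bases. CTTTGA was found in 4 members (Defa21, Defa22, Mmp7 and Mptx1) and in 13.8% of 32851 windows. TATAAA was found in the same 4 members and in 12.4% of windows, and TTTATG, the core of the Cdx site, in Itln1 and in 10.8% of windows. In Defa21 and Defa22, CTTTGA lay at -111 and -71 and TATAAA at -31. Mmp7 had more than 1 window. TATAAA lay at -123 and -26 in the earlier, and CTTTGA at -246 in the later, which begins inside the gene. A match describes these letters and not a bound site.

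Across the 15 groups, 6 members (Defa21, Defa22, Defa24, Lyz1, Mmp7 and Mptx2) were higher on every small intestinal array than on any array of another organ, although Defa24 and Lyz1 were also raised in some colonic and pyloric sorts. Itln1 was also higher on every small intestinal array, at 9.19 or more against at most 8.80 elsewhere, but was found at a graded level in every organ. The share of all genes that separate the small intestine in this way is not given here. The organ pattern was known when the members were chosen. Ang4 was high in small intestine and colon, and Mptx1 was highest in colon. Over the 15 group means, the 15 pairs among the 6 genes named first had Pearson's r between 0.927 and 0.998 with a median of 0.965. Of these groups 4 are small intestinal and share a line, so the points are not independent.

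**Figure D1:**
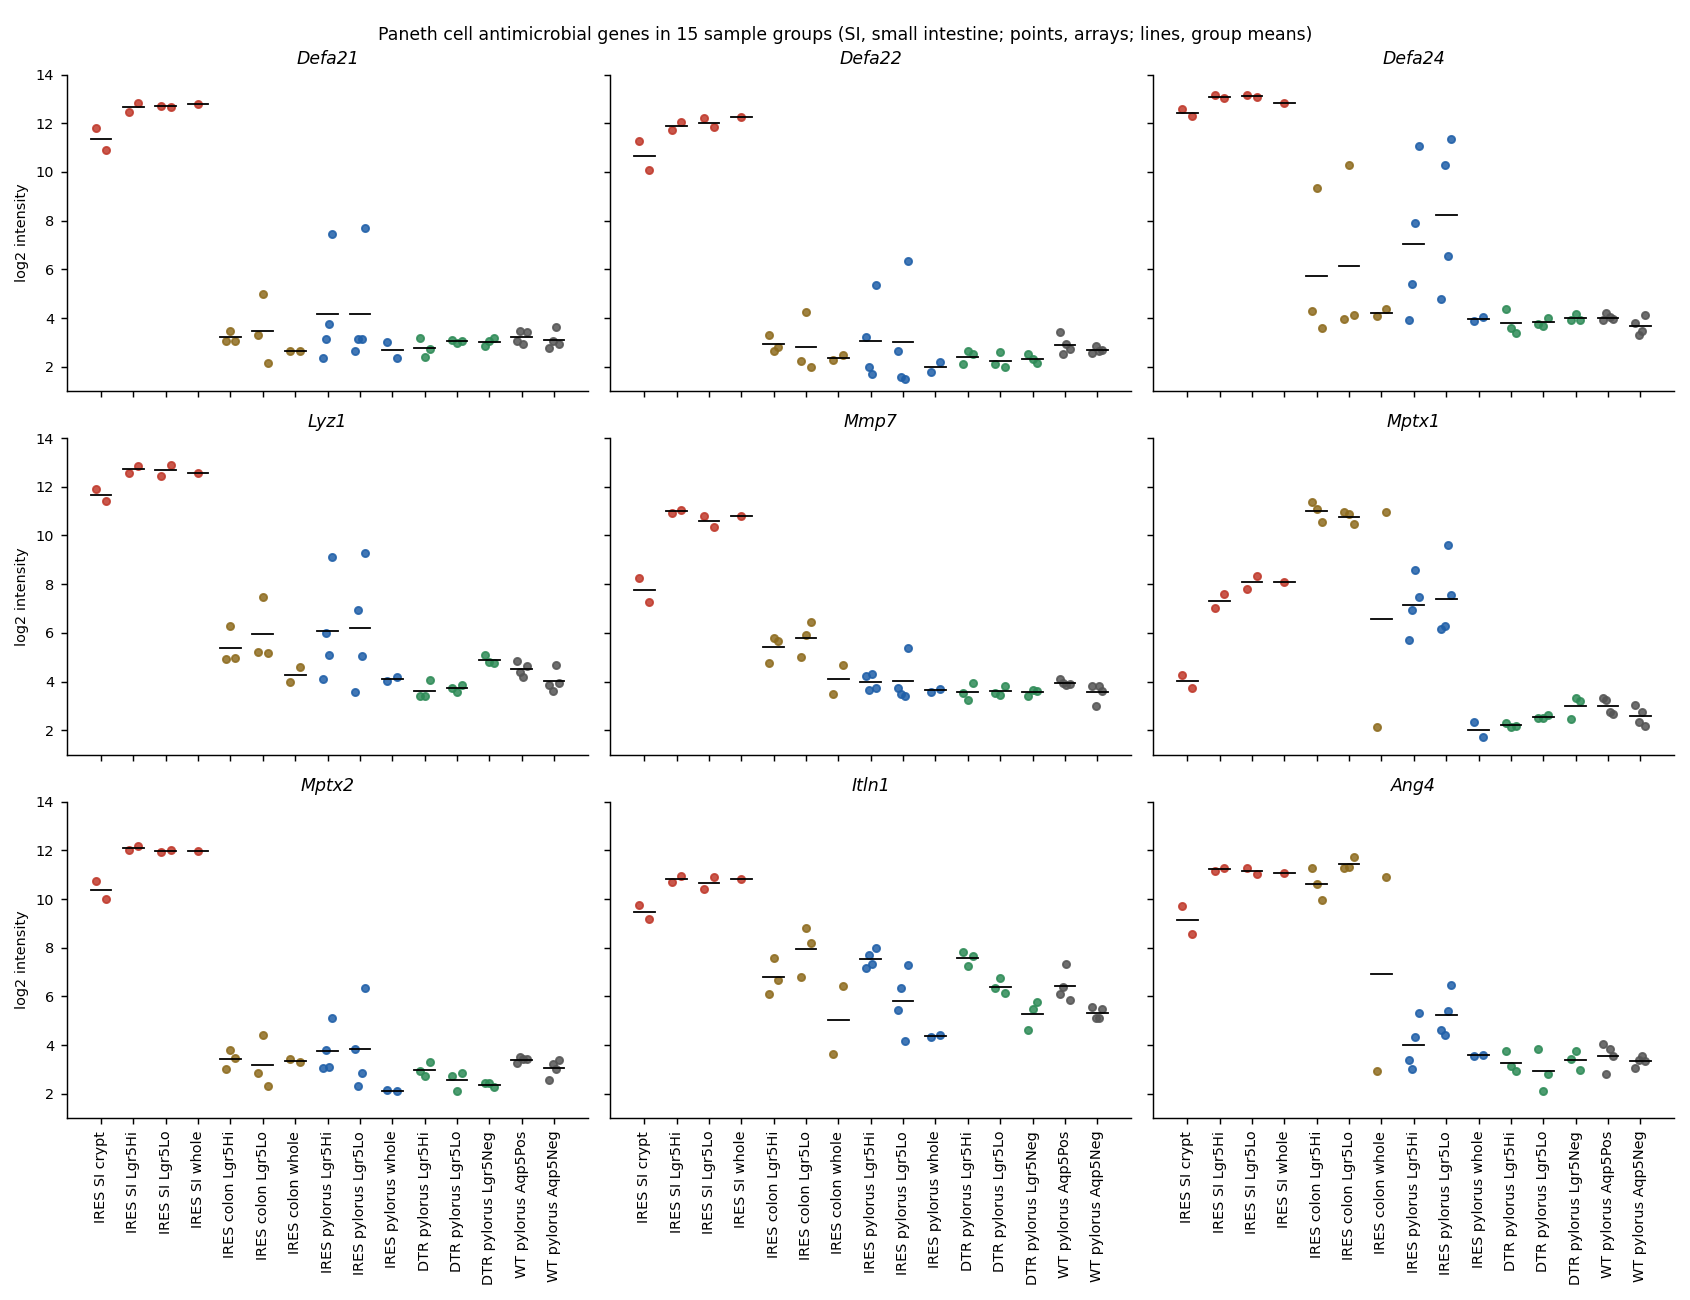
Log2 intensity (vertical axis) of the 9 genes in 15 groups (horizontal axis). Points are arrays, lines are group means, and colours are small intestine (red), colon (brown), IRES pylorus (blue), DTR pylorus (green) and WT pylorus (grey). Defa21, for example, is between 10.90 and 12.85 on the small intestinal arrays and at most 7.70 on all others.

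Among the alpha-defensins, Defa21 had 11.79 and 10.90 in small intestinal crypts, 12.47 and 12.85 in Lgr5Hi cells, 12.73 and 12.67 in Lgr5Lo cells and 12.79 in the unsorted sample. On all other arrays it lay between 2.16 and 7.70. Defa22 had 11.27 and 10.06 in crypts, 11.72 and 12.06 in Lgr5Hi cells, 12.21 and 11.84 in Lgr5Lo cells and 12.26 unsorted. Neither gene overlapped between the small intestine and the other organs. Defa24 had 12.57 and 12.29 in crypts, 13.15 and 13.03 in Lgr5Hi cells, 13.16 and 13.06 in Lgr5Lo cells and 12.85 unsorted. Its levels elsewhere ran from 3.30 to 11.37, the widest range of the 3 outside the small intestine. Probe sets of near-identical defensins can share signal, so the 3 are not independent measurements. A further 9 probe sets that name several defensins had group medians of 10.4 in crypts, 11.3 in Lgr5Hi cells, 11.5 in Lgr5Lo cells and 11.9 in unsorted small intestine, against 4.4 to 6.5 in the other groups.

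Lyz1, the lysozyme of Paneth granules, had 11.89 and 11.40 in crypts, 12.56 and 12.87 in Lgr5Hi cells, 12.46 and 12.88 in Lgr5Lo cells and 12.58 in unsorted small intestine. Mmp7 had 8.26 and 7.27 in crypts, 10.94 and 11.06 in Lgr5Hi cells, 10.80 and 10.36 in Lgr5Lo cells and 10.81 unsorted. Mptx2, a secreted mucosal pentraxin, had 10.75 and 9.98 in crypts, 12.03 and 12.17 in Lgr5Hi cells, 11.96 ± 0.06 in Lgr5Lo cells (SD, n = 2) and 11.97 unsorted. For all 3, crypts were lowest within the small intestine, and Lgr5Hi, Lgr5Lo and unsorted samples lay close together. Outside it, Mptx2 stayed between 2.10 and 6.33 and Mmp7 between 2.98 and 6.46, with the upper Mmp7 levels in colon. A second probe set of Mmp7, not used here, stayed between 2.75 and 4.02 on all arrays.

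Ang4, an angiogenin-family ribonuclease with microbicidal activity, was as high in colon as in small intestine. It had 11.17 and 11.27 in small intestinal Lgr5Hi cells and 11.28, 10.64 and 9.97 in colonic Lgr5Hi cells. Colonic Lgr5Lo cells had 11.28, 11.30 and 11.72, and the whole colon replicate 2 had 10.89. The array labelled whole colon replicate 1 had 2.92, within the pyloric range of 2.13 to 6.47.

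Mptx1 had another pattern than its relative Mptx2, with Pearson's r of 0.323 over the 15 group means. It had 11.36, 11.11 and 10.54 in colonic Lgr5Hi cells, 10.98, 10.87 and 10.48 in colonic Lgr5Lo cells and 10.98 in whole colon replicate 2, against 2.15 on the array labelled replicate 1. In small intestine it had 4.29 and 3.73 in crypts, 7.03 and 7.61 in Lgr5Hi cells, 7.81 and 8.34 in Lgr5Lo cells and 8.07 unsorted. Sorted IRES pyloric cells reached 5.69 to 9.61, while unsorted IRES pylorus had 2.34 and 1.72 and the DTR and WT pylorus at most 3.34. Thus Mptx2 was near background in the colon, at 2.34 to 4.40, where Mptx1 was at its highest.

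Itln1, intelectin-1, is a lectin that binds microbial sugars. It averaged 9.47 in crypts, 10.82 in Lgr5Hi cells, 10.67 in Lgr5Lo cells and 10.82 in unsorted small intestine. Below these came colonic Lgr5Lo cells at 7.93, DTR pyloric Lgr5Hi cells at 7.58, IRES pyloric Lgr5Hi cells at 7.55 and colonic Lgr5Hi cells at 6.79, whose arrays overlapped from each group to the next. The lowest group mean was 4.37 in unsorted IRES pylorus. Its span between highest and lowest group, 6.45 on the log2 scale, was the smallest of the 9 genes, whose others spanned 7.44 to 10.27.

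The comparison of Lgr5Hi cells between organs asks which transcripts separate bright cells of small intestine from those of colon and pylorus. Against colonic Lgr5Hi cells, 6 of the 9 genes were higher in small intestinal Lgr5Hi cells, where 1.32% of all genes were called higher at an adjusted p under 0.05 (limma, Benjamini-Hochberg over all genes). The median difference of the 9 was 7.33, against -0.02 over all genes. Against pyloric Lgr5Hi cells 8 were higher, where 7.74% of all genes were, and the median was 7.02 against -0.08. Both comparisons share the small intestinal arrays. The organ pattern was known when these genes were chosen.

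**Figure D2:**
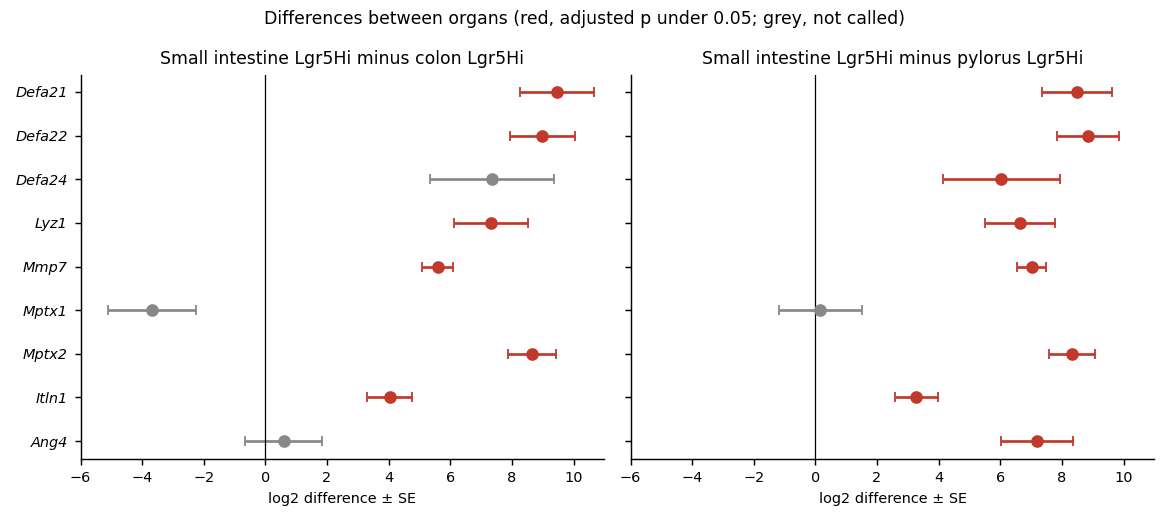
Log2 difference ± SE (horizontal axis) of small intestinal Lgr5Hi cells minus colonic (left) and pyloric (right) Lgr5Hi cells for the 9 genes (vertical axis). Red points are called and grey points are not. Mptx1 is the one gene below 0 against colon, at -3.69, and Defa21 has the largest difference there, at 9.46.

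The defensins gave some of the largest differences. Defa21 was higher in small intestinal Lgr5Hi cells by 9.46 ± 1.21 than in colon (SE, adjusted p = 3.34e-05) and by 8.48 ± 1.14 than in pylorus (adjusted p = 2.20e-05). Defa22 was higher by 8.98 ± 1.05 (adjusted p = 1.08e-05) and by 8.84 ± 1.00 (adjusted p = 2.36e-06). For Defa24 the difference from pylorus was 6.03 ± 1.90 (adjusted p = 0.0388), and that from colon, 7.35 ± 2.00, was not called (adjusted p = 0.0515). Its arrays did not overlap between organs, but colonic replicate 2 and pyloric replicates 3 and 4 were high. Without the array labelled whole colon replicate 1, the colonic difference of Defa24 had an adjusted p of 0.0404, and without the colonic Lgr5Hi replicate 2 it was 9.15 (adjusted p = 0.0171). The pyloric call of Defa24 was lost when any of 4 arrays was left out, with adjusted p of 0.218 and 0.176 without small intestinal Lgr5Hi replicates 1 and 2 and of 0.109 and 0.0899 without pyloric Lgr5Hi replicates 1 and 2.

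Mmp7 and Mptx2 differed with less spread than the defensins or Lyz1. Mmp7 was higher by 5.59 ± 0.51 than in colon (adjusted p = 2.90e-07) and by 7.02 ± 0.48 than in pylorus (adjusted p = 1.63e-09). Mptx2 was higher by 8.66 ± 0.78 (adjusted p = 2.90e-07) and by 8.33 ± 0.74 (adjusted p = 9.75e-08). Lyz1 was higher by 7.33 ± 1.21 (adjusted p = 0.000682) and by 6.64 ± 1.15 (adjusted p = 0.000337). These calls held without each array left out in turn.

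Itln1 was higher in small intestinal Lgr5Hi cells by 4.03 ± 0.73 than in colon (adjusted p = 0.00166) and by 3.27 ± 0.69 than in pylorus (adjusted p = 0.00232). Ang4 separated pylorus from the rest. It was higher in small intestine than in pylorus by 7.20 ± 1.17 (adjusted p = 0.000192), while its difference from colon was 0.59 ± 1.24 (adjusted p = 0.925). For Mptx1 the difference was -3.69 ± 1.42 against colon (adjusted p = 0.241) and 0.15 ± 1.35 against pylorus (adjusted p = 0.961). Every small intestinal Lgr5Hi array lay below every colonic one for Mptx1. Without the array labelled whole colon replicate 1, the same -3.69 had an adjusted p of 0.00283.

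In Lgr5Lo cells the same contrast called 7 genes higher in small intestine than in colon, where 2.08% of all genes were higher, and 7 higher than in pylorus, where 4.43% were. Against colon these were all but Mptx1 and Ang4, with Defa24 and Itln1 nearest the threshold (adjusted p = 0.0477 and 0.0300). Both of these calls were lost without either small intestinal Lgr5Lo array or without colonic Lgr5Lo replicate 1 or 3. The adjusted p were then 0.165 to 0.320 for Defa24 and 0.0625 to 0.181 for Itln1. Against pylorus Mptx1 and Defa24 were not called, and Defa24 differed by 4.87 ± 1.90 (adjusted p = 0.128). Mptx1 differed by -2.70 ± 1.42 from colon (adjusted p = 0.408), and by the same amount with an adjusted p of 0.0271 without the array labelled whole colon replicate 1.

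Between colon and pylorus, 2 of the 9 genes were higher in colonic Lgr5Hi cells, where 4.22% of all genes were. Ang4 had 11.28, 10.64 and 9.97 in colon and 3.40, 3.00, 4.35 and 5.34 in pylorus, a difference of 6.61 ± 1.04 (adjusted p = 0.000188). Mmp7 had 4.77, 5.77 and 5.68 in colon and 4.22, 3.65, 4.32 and 3.73 in pylorus. Neither gene overlapped between the organs, as held in this direction for 9.06% of all genes. The Mmp7 difference, 1.43 ± 0.42 (adjusted p = 0.0424), was lost without any of 5 arrays, with adjusted p of 0.0593 to 0.186 (colonic replicate 2 or 3, or pyloric replicate 1, 2 or 4). Mptx1 did not overlap either, with 10.54 to 11.36 in colon and 5.69 to 8.57 in pylorus, and it differed by 3.84 ± 1.19 (adjusted p = 0.0529). The same amount had an adjusted p of 0.000115 without the array labelled whole colon replicate 1, and without pyloric Lgr5Hi replicate 3 the difference was 4.31 (adjusted p = 0.041).

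Within the small intestine, all 9 genes were lower in both crypt samples than in every Lgr5Hi and every Lgr5Lo sample. Of all genes, 29.2% were lower without overlap against Lgr5Hi and 24.6% against Lgr5Lo. In the IRES fit 1 member, Mmp7, was called lower, where 6.97% of all genes were lower against Lgr5Hi and 2.69% against Lgr5Lo. Mmp7 fell by 3.23 ± 0.56 against Lgr5Hi (adjusted p = 0.000297) and by 2.82 ± 0.56 against Lgr5Lo (adjusted p = 0.0029). The second call was lost without crypt replicate 2 (adjusted p = 0.101) or without Lgr5Lo replicate 1 (adjusted p = 0.058). Without the array labelled whole colon replicate 1, Mptx1 and Ang4 were called lower in crypts too, with adjusted p of 0.00555 and 0.0229 against Lgr5Hi and of 0.00218 and 0.0491 against Lgr5Lo.

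The IRES fit shares 1 spread per gene over small intestine, colon and pylorus. When only the arrays compared were fitted, 8 members were called lower in crypts than in Lgr5Hi cells, where 11.3% of all genes were lower, and 8 than in Lgr5Lo cells, where 4.96% were. Defa24 was the exception in both. The differences from Lgr5Hi cells were -3.31 for Mptx1, -2.09 for Ang4, -1.73 for Mptx2, -1.36 for Itln1, -1.31 for Defa21, -1.23 for Defa22, -1.07 for Lyz1 and -0.66 for Defa24. Mptx1 and Mmp7 were furthest apart. Defa24 was nearest, with levels close to the highest value in the table, 13.61.

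Markers moved with the crypt samples. Enterocyte markers (7 of 7 measured) had a mean level of 11.74 and 11.73 in crypts, against 6.90 and 9.61 in Lgr5Hi cells and 10.01 and 10.50 in Lgr5Lo cells. Stem cell markers had 6.41 and 6.04 in crypts, against 8.87 and 8.96 in Lgr5Hi cells and 6.84 and 7.70 in Lgr5Lo cells. The 1 unsorted array of the small intestine had 10.21 for enterocyte and 7.96 for stem cell markers. By these lists the crypt arrays held more enterocyte and less stem cell signal than unsorted tissue, which goes against the label crypt. Lgr5 itself was at 4.81 and 5.04 in crypts, below every Lgr5Lo array of the small intestine. The part of these in the Paneth gene differences was not tested.

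Between Lgr5Hi and Lgr5Lo cells of the small intestine none of the 9 genes was called, where 0.185% of all genes were, and 0 had an unadjusted p under 0.05. The differences ran from -0.76 ± 1.56 for Mptx1 to 0.41 ± 0.56 for Mmp7. Mmp7 and Mptx2 were higher and Mptx1 lower in Lgr5Hi cells without overlap, with 2 arrays a group. The share of all genes without overlap is not given here, and an absent call does not show equal levels. In colon, 0 of 9 and 0% of all genes were called between Lgr5Hi and Lgr5Lo cells, again with 0 members at an unadjusted p under 0.05, and the groups overlapped for all 9. The widest colonic difference was -1.14 ± 0.65 for Itln1.

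In sorted cells of IRES colon and pylorus, Defa24 and Lyz1 varied widely between replicate numbers, and both gates of a number were mostly high or low together. Defa24 had 11.07 and 11.37 in Lgr5Hi and Lgr5Lo cells of pyloric replicate 4, 7.89 and 6.54 in replicate 3, 5.38 and 10.27 in replicate 2, where the gates differed most, and 3.91 and 4.80 in replicate 1. In colon it had 9.33 and 10.30 in replicate 2, 4.31 and 3.95 in replicate 1 and 3.58 and 4.14 in replicate 3. Unsorted IRES pylorus, whole colon and all DTR and WT arrays stayed between 3.30 and 4.38.

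**Figure D3:**
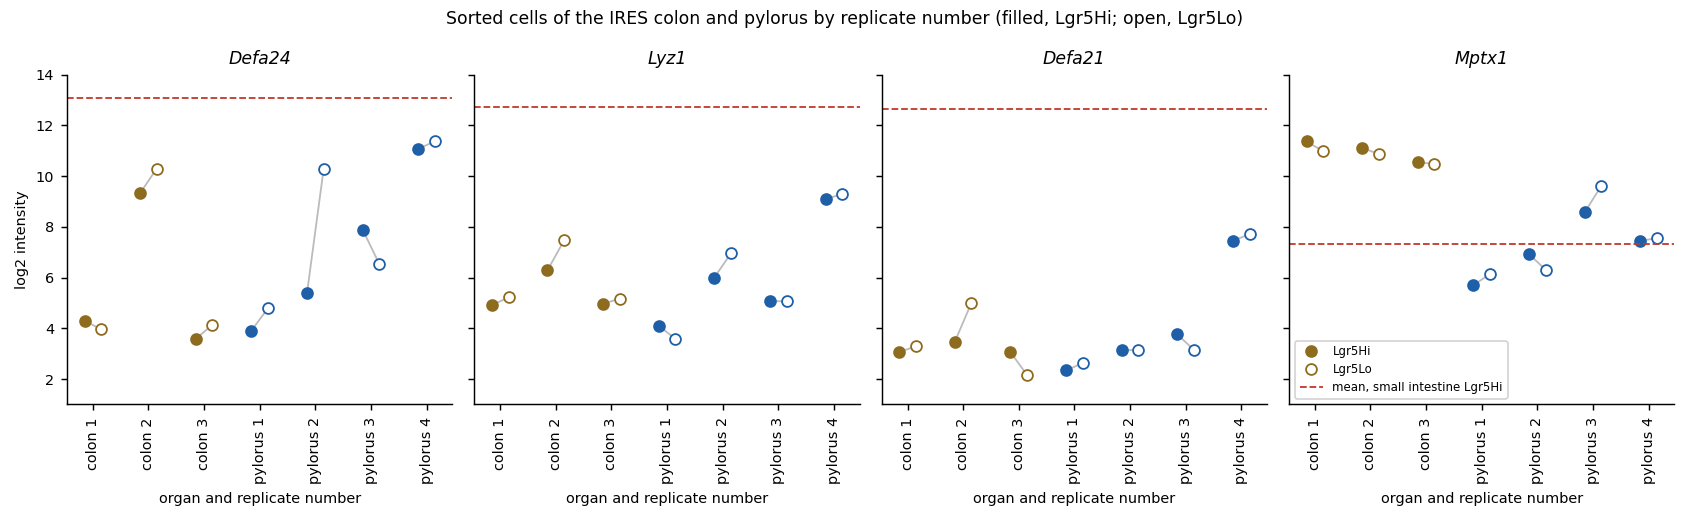
Log2 intensity (vertical axis) of Defa24, Lyz1, Defa21 and Mptx1 in sorted IRES colon and pylorus by replicate number (horizontal axis). Filled points are Lgr5Hi, open points Lgr5Lo, and the dashed line is the mean of small intestinal Lgr5Hi cells. Defa24 reaches 9.33 and 10.30 in colon replicate 2 and 11.07 and 11.37 in pylorus replicate 4, where Mptx1 does not stand out.

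Lyz1 followed Defa24, with 9.11 and 9.27 in Lgr5Hi and Lgr5Lo cells of pyloric replicate 4 and 3.59 to 6.96 in the other pyloric sorts. In colon it had 6.29 and 7.47 in replicate 2, against 4.91 to 5.22 in replicates 1 and 3. Defa21 was raised most in pyloric replicate 4, at 7.45 and 7.70, and was at most 5.00 on the other colonic and pyloric arrays. That 5.00 was in colonic Lgr5Lo cells of replicate 2, against 3.28 and 2.16 in those of replicates 1 and 3. Each gene is best set against its own small intestinal Lgr5Hi level. In Lgr5Hi and Lgr5Lo cells of pyloric replicate 4 the distance from that level was -2.03 and -1.72 for Defa24, -3.60 and -3.44 for Lyz1, -5.20 and -4.95 for Defa21 and -6.97 and -5.77 for Mptx2. In colonic replicate 2 it was -3.76 and -2.80 for Defa24 and -9.19 and -7.65 for Defa21. The distances thus differed between genes on the same array.

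Defa39, an alpha-defensin outside the 9, was high on the same pyloric arrays, with 9.44 and 10.16 in replicate 4 and 8.72 in Lgr5Lo cells of replicate 2, against 13.06 as its small intestinal Lgr5Hi mean. Enterocyte markers had a mean level of 5.96 and 7.94 in Lgr5Hi and Lgr5Lo cells of pyloric replicate 4, against 4.63 to 6.67 in the other pyloric sorts. In colonic replicate 2 they had 5.34 and 6.20, against 4.61 to 5.24 in the other colonic sorts. Fabp1, the enterocyte fatty acid binding protein, had 7.01 and 9.07 in pyloric replicate 4 and 5.79 and 7.00 in colonic replicate 2. Their part in the Paneth signal was not tested.

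Mptx1 had another set of high arrays. It was highest in pyloric replicate 3, at 8.57 in Lgr5Hi and 9.61 in Lgr5Lo cells, against 5.69 to 7.54 in the other pyloric sorts. In that replicate Muc2, the intestinal goblet cell mucin, had 7.54 and 9.75, and Car1, a carbonic anhydrase of colonocytes, had 6.17 and 6.54. In the other pyloric sorts Muc2 lay between 4.73 and 8.15 and Car1 between 2.80 and 5.26. Colonocyte markers (4 of 4 measured) had a mean of 4.54 and 4.66 in replicate 3, against 3.39 to 4.36. Their part in the Mptx1 level was not tested.

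In the IRES pylorus, 0 of 9 genes were called between Lgr5Hi and Lgr5Lo cells, where 1.49% of all genes were, and 1, Itln1, had an unadjusted p under 0.05. Itln1 had 7.16, 7.72, 7.33 and 7.99 in Lgr5Hi cells, against 5.45, 6.34, 4.16 and 7.28 in Lgr5Lo cells. Itln1 was higher in Lgr5Hi cells within all 4 replicate numbers, although the groups overlapped. Its difference was 1.74 ± 0.56 (adjusted p = 0.14). Equally numbered Lgr5Hi and Lgr5Lo arrays deviated together, and with the replicate number as a block the same 1.74 was called (adjusted p = 0.00868), where 2.54% of all genes were. Without Lgr5Lo replicate 4 Itln1 differed by 2.23 (adjusted p = 0.0472). Ang4 was lower in Lgr5Hi cells within all 4 numbers, by a like amount of -1.43 to -1.07, with 3.40, 3.00, 4.35 and 5.34 in Lgr5Hi cells and 4.63, 4.43, 5.42 and 6.47 in Lgr5Lo cells. It was not called, at -1.22 ± 0.96 (adjusted p = 0.649, and 0.544 with the block). The other 7 members differed in both directions between the numbers. In colon, Itln1, Lyz1 and Mmp7 were lower and Mptx1 was higher in Lgr5Hi cells within all 3 numbers, none of them called with the block (adjusted p = 0.597 to 0.999).

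Against unsorted IRES pylorus, 2 genes were higher in pyloric Lgr5Hi cells, where 1.65% of all genes were. Itln1 was higher by 3.18 ± 0.69 (adjusted p = 0.00623), with 4.32 and 4.43 unsorted. Mptx1 was higher by 5.13 ± 1.35 (adjusted p = 0.024). With the replicate block the Mptx1 difference was 4.12 (adjusted p = 0.0597). Leaving out either unsorted array ended both calls, with adjusted p of 0.0839 and 0.0924 for Itln1 and 0.141 and 0.264 for Mptx1. Mptx1 was also lost without Lgr5Hi replicate 3 (adjusted p = 0.0559).

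In the DTR pylorus, which carried no Defa24 signal above 4.38, 3 of the 9 genes differed between Lgr5Hi and Lgr5Neg cells, where 18.3% of all genes were called. Itln1 had 7.84, 7.25 and 7.66 in Lgr5Hi cells, 6.33, 6.74 and 6.15 in Lgr5Lo cells and 4.63, 5.51 and 5.76 in Lgr5Neg cells. The 3 gates did not overlap. It was higher in Lgr5Hi than in Lgr5Neg cells by 2.29 ± 0.26 (adjusted p = 6.35e-05) and than in Lgr5Lo cells by 1.18 ± 0.26 (adjusted p = 0.0225), and higher in Lgr5Lo than in Lgr5Neg cells by 1.11 ± 0.26 (adjusted p = 0.0484). Goblet cell markers ran the other way, with a mean over 6 of 6 genes of 4.74 to 4.93 in Lgr5Hi cells, 5.42 to 5.86 in Lgr5Lo cells and 6.19 to 7.14 in Lgr5Neg cells. The Lgr5Hi to Lgr5Neg call of Itln1 held without each array in turn. The Lgr5Hi to Lgr5Lo call was lost without any of 4 arrays, with adjusted p of 0.0608 to 0.111 (replicates 1 and 3 of either gate), and the Lgr5Lo to Lgr5Neg call without any of 5, with adjusted p of 0.0652 to 0.175 (the 3 Lgr5Lo arrays and Lgr5Neg replicates 1 and 2).

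**Figure D4:**
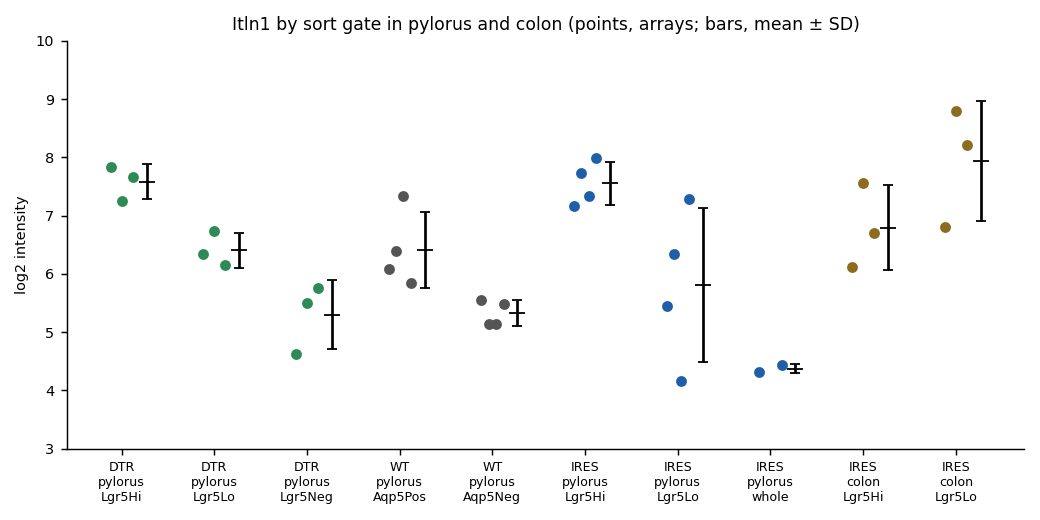
Log2 intensity of Itln1 (vertical axis) by sort gate (horizontal axis) in DTR, WT and IRES pylorus and in IRES colon. Points are arrays and bars are mean ± SD. The DTR gates fall into 3 separate levels, with Lgr5Hi at 7.25 to 7.84 and Lgr5Neg at 4.63 to 5.76.

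Lyz1 fell by 1.27 ± 0.18 in DTR Lgr5Hi cells against Lgr5Neg cells (adjusted p = 0.000346) and by 1.17 ± 0.18 in Lgr5Lo cells against Lgr5Neg cells (adjusted p = 0.00463). Lyz1 levels were 3.40, 3.42 and 4.05 in Lgr5Hi cells, 3.73, 3.56 and 3.87 in Lgr5Lo cells and 5.10, 4.82 and 4.76 in Lgr5Neg cells. Lyz2, a close paralog made by macrophages whose transcripts Lyz1 probes may also bind, fell by 0.88 ± 0.26 in Lgr5Hi against Lgr5Neg cells. Immune cell markers (7 of 7 measured) had a mean of 3.42 to 3.66 in Lgr5Hi cells, 3.54 to 3.79 in Lgr5Lo cells and 3.62 to 3.87 in Lgr5Neg cells, and their part in the Lyz1 difference was not tested. Mptx1 fell by 0.79 ± 0.20 in Lgr5Hi against Lgr5Neg cells (adjusted p = 0.0137), at levels of 2.13 to 3.34 that all lie under the array medians. That call was lost without Lgr5Neg replicate 2 or 3 (adjusted p = 0.0706 and 0.0659). Mptx2 differed by 0.62 ± 0.20 (adjusted p = 0.0504), and without Lgr5Hi replicate 2 by 0.75 (adjusted p = 0.0344). Without Lgr5Hi replicate 1 the -0.21 of Defa24 was -0.51 (adjusted p = 0.0441), also among levels near background. Lgr5Hi against Lgr5Lo cells gave 1 called member, where 4.97% of all genes were called, and Lgr5Lo against Lgr5Neg cells gave 2, where 2.2% were. In the last comparison Mptx1 was called too without Lgr5Neg replicate 1, at -0.72 (adjusted p = 0.0344).

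In WT pylorus 0 of 9 genes were called between Aqp5Pos and Aqp5Neg cells, where 2.8% of all genes were, and 1 had an unadjusted p under 0.05. That gene was again Itln1, with 6.08, 6.39, 7.33 and 5.85 in Aqp5Pos cells, against 5.55, 5.14, 5.13 and 5.48 in Aqp5Neg cells. The groups did not overlap, as held for 5.84% of all genes in this direction. The difference was 1.09 ± 0.28 (adjusted p = 0.0624), and without Aqp5Pos replicate 4 it was 1.28 (adjusted p = 0.0294).

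The gate difference of Itln1 was itself compared between organs. Lgr5Hi minus Lgr5Lo was -1.14 in colon and 1.74 in pylorus, a difference of -2.89 ± 0.86 (adjusted p = 0.212, where 0.225% of all genes were called). With the replicate block it was called (adjusted p = 0.0166, where 0.64% of all genes were). Without the block, 0 of 9 were called for small intestine against colon (0.0135% of all genes) and for small intestine against pylorus (0.0316%) either, and 0 had an unadjusted p under 0.05 there. In the colon Itln1 had 6.12, 7.56 and 6.69 in Lgr5Hi cells, against 6.80, 8.80 and 8.20 in Lgr5Lo cells.

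Other alpha-defensin genes gave the organ pattern of the members. Of 10 measured, 3 of them annotated pseudogenes, 8 were higher in small intestinal Lgr5Hi cells than in colon and 8 than in pylorus, with a median of 3.86 and 4.08, and 0 were lower. Of all genes, 1.32% were higher than in colon and 7.74% than in pylorus. Defa33 was higher by 7.04 ± 0.83 than in colon (adjusted p = 1.11e-05) and by 6.90 ± 0.78 than in pylorus. Defa40 was higher by 4.09 ± 0.48 than in colon and by 4.98 ± 0.45 than in pylorus (adjusted p = 1.19e-07). The pseudogenes Defa-ps12 and Defa-ps13 were the 2 not called, at 1.67 and 2.19 in small intestinal Lgr5Hi cells. In crypts against Lgr5Hi cells, Defa40 fell by 2.10 ± 0.53 (adjusted p = 0.00832) and Defa-ps1 by 2.44 ± 0.42 (adjusted p = 0.000308).

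Other secreted Paneth products were less uniform. Of 21 listed genes 10 were measured, and 5 were higher in small intestinal Lgr5Hi cells than in colon and 3 than in pylorus, with a median difference of 2.43 and 1.43. The shares of all genes higher in these comparisons were 1.32% and 7.74%. Pla2g2a, a secreted phospholipase that kills bacteria, was higher than in colon by 2.66 ± 0.54 (adjusted p = 0.00562) and lower in crypts than in Lgr5Hi cells, where the difference was -2.82 (adjusted p = 0.0022). Reg3a, an antimicrobial C-type lectin, went the other way within the small intestine. It was higher in crypts than in Lgr5Hi cells by 4.32 ± 0.57, and it fell by 3.42 ± 0.57 in Lgr5Hi against Lgr5Lo cells (adjusted p = 0.0147), where all 9 members were lower in crypts.

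A list of Paneth cell regulators and of signals of the stem cell niche was measured in full (16 of 16). Of these genes, 0 were called higher in small intestinal Lgr5Hi cells than in colon or pylorus, where 1.32% and 7.74% of all genes were. Their median difference was -0.37 and -0.55. Spdef, a transcription factor of secretory cells, fell by 1.59 ± 0.29 against colon (adjusted p = 0.00204) and by 2.21 ± 0.28 against pylorus. Xbp1, a regulator of secretory capacity, fell by 1.91 ± 0.31 against pylorus. In crypts Sox9 fell by 3.09 ± 0.48 against Lgr5Hi cells, Ephb3, an ephrin receptor that positions Paneth cells, by 1.60 ± 0.51 and Cd24a by 0.94 ± 0.26. In the DTR pylorus 6 of the 16 were higher in Lgr5Hi than in Lgr5Neg cells, among them Sox9 by 2.44 ± 0.23 and Spdef by 1.70 ± 0.15, and 1, Fzd5, was lower. Of all genes, 18.3% were called in that comparison in either direction. None of the 3 member defensins was called there.

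The DTR Lgr5Hi cells also held high levels of secreted genes from the same list. In Lgr5Hi against Lgr5Neg cells Reg3g was higher by 4.21 ± 0.41, Pnliprp2, a pancreatic lipase relative, by 3.43 ± 0.27, Clps, colipase, by 3.03 ± 0.29 and Pla2g2a by 2.57 ± 0.29. In this list 5 of 10 were higher and 2 were lower, where 18.3% of all genes were called in either direction.

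The 10 genes most like the members over 15 group means, by Pearson's r with the centred mean of the 9, were taken from 3087 named genes whose group means span at least 2 on the log2 scale. Of them 5 were alpha-defensins, Defa26 (0.981), Defa39 (0.976), Defa33 (0.972), Defa35 (0.969) and Defa40 (0.957). The others were Cps1 (0.986), the first enzyme of the urea cycle, Fbp1 (0.966), an enzyme of gluconeogenesis, Ccl25 (0.963), a chemokine of the small intestine, Tgm2 (0.961) and Far2 (0.961). Cps1 averaged 11.43 in small intestinal Lgr5Hi cells, 6.12 in colonic and 4.52 in pyloric Lgr5Hi cells.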

How the data were processed

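The authors deposited log2 intensities per probe set, which per the submitters' processing notes come from RMA (oligo, limma 3.26.8, R 3.2.3 and Partek are also named, without role). Background correction and summarization are therefore theirs. The table held 41345 probe sets on 42 arrays, of which 23521 carried 1 gene symbol, 1814 several and 16010 none. This gave 22180 genes, 1082 of them with several probe sets. Of the identifiers 23328 matched RefSeq and 193 did not.

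Group means were estimated separately for the 25 IRES, 9 DTR and 8 WT arrays with lmFit and eBayes (limma 3.58.1, R 4.3.3). P-values were adjusted by Benjamini and Hochberg's method across every gene, with calls made under 0.05. The fit was tested on simulated data, but the settings and outcome are not given here, so no result rests on that test. Levels of different models were not tested against each other. The members, lists and comparisons were chosen with earlier results of these data known. The text names the 9 members, then up to 4 genes per list and comparison with the smallest p, Lgr5 as the check of the gates, the 10 genes most like the members, and single markers beside the arrays they describe. Defa39 and the markers Muc2, Car1, Fabp1 and Gkn1 were named after their values were seen, as were Fzd5, Defa-ps12 and Defa-ps13. The number of arrays limits the precision of each value.

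Replicate numbers were checked for pairing by the correlation of deviations from group means across genes. For Lgr5Hi and Lgr5Lo it was 0.16, 0.10, 0.27 and 0.30 in the IRES pylorus and 0.18, 0.14 and 0.24 in the colon, so the block is given there where it changes a call. It was 0.37 in small intestine, 0.03 between crypts and Lgr5Hi cells, -0.11 to 0.15 in DTR and -0.02 to 0.17 in WT. With 2 arrays a group both pairs must give the same value, so each small intestinal value is a single check.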

Additional observations from a re-analysis of the deposited data

Results flagged for a closer look

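Within groups of 4 arrays, 36 sets of values of the 9 genes were tested for a single array far from the others (gap over range above 0.829), and 2 passed. About 1 in 20 would by chance. Both were IRES pyloric Lgr5Lo replicate 4, where Defa21 was 7.70 against 2.63 to 3.15 in the other 3, and Mmp7 was 5.40 against 3.42 to 3.72. Lgr5Hi cells of the same replicate number had 7.45 for Defa21 and 3.73 for Mmp7.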

How the results depend on the processing

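No called difference of a single gene turned its direction under the alternatives run. Over single genes and settings, 2375 values kept direction and side of the threshold, 56 lost a call, 55 gained one and 145 uncalled ones changed sign. The number of all genes called moved too, for example from 4062 of 22180 in DTR Lgr5Hi minus Lgr5Neg to 1515 with all 42 arrays in 1 fit. Counts of members called in either direction moved as follows. Crypts minus Lgr5Hi, 1 in the shared fit, gave 8 with only the arrays compared, 2 with the replicate block, 3 without the array labelled whole colon replicate 1 and 2 with 6 sorted arrays left out. Crypts minus Lgr5Lo, also 1, gave 2 with all 42 arrays in 1 fit, 8 with only the arrays compared, 2 with the 6 arrays left out, and 0 to 3 without single arrays. Colonic minus pyloric Lgr5Hi, 2, gave 1 with a common median, 1 with the mean of a gene's probe sets, 1 with the 6 arrays left out, 3 (with Mptx1) with dim genes filtered out, with all 42 arrays and with only the arrays compared, and 1 to 3 without single arrays. Pyloric Lgr5Hi minus Lgr5Lo, 0, gave 1 with all 42 arrays, 1 with the block and 0 to 1 without single arrays. Pyloric Lgr5Hi minus unsorted, 2, gave 1 with trended robust moderation, 1 with the block, 1 with the 6 arrays left out and 0 to 2 without single arrays. DTR Lgr5Hi minus Lgr5Neg, 3, gave 1 with all 42 arrays, 2 with dim genes filtered out, 4 (with Mptx2) with a common median, trended robust moderation, only the arrays compared or the block, and 2 to 4 without single arrays. DTR Lgr5Hi minus Lgr5Lo, 1, gave 0 with all 42 arrays and 0 to 1 without single arrays. DTR Lgr5Lo minus Lgr5Neg, 2, gave 1 with quantile normalization, 0 with all 42 arrays, 1 with only the arrays compared, 1 with the block and 1 to 2 without single arrays. WT Aqp5Pos minus Aqp5Neg, 0, gave 1 with quantile normalization and 0 to 1 without single arrays. The gate difference of colon against pylorus, 0, gave 1 with all 42 arrays and 1 with the block. Small intestinal against colonic and pyloric Lgr5Hi gave 6 to 8 and 7 to 8 without single arrays, and Lgr5Lo 5 to 8 and 7. The counts of 8 against colon include Mptx1 as lower in small intestine. The first, 6, gave 7 (with Defa24) with dim genes filtered out, all 42 arrays, the block or the 6 arrays left out. With only the arrays compared it gave 8, where Mptx1 was also called, as lower in small intestine. The second, 8, lost Defa24 with quantile normalization (adjusted p = 0.0582) and trended robust moderation (0.102). Lgr5Lo against colon, 7, gave 5 without Defa24 and Itln1 with a common median (0.063 and 0.055) and trended robust moderation (0.136 and 0.0669). It gave 6 without Defa24 with quantile normalization (0.0627). With only the arrays compared it gave 8, where Mptx1 was called as lower in small intestine. Lgr5Lo against pylorus, 7, gave 8 (with Defa24) with all 42 arrays, the block or the 6 arrays left out. Fewer arrays or another spread follow from how these fits are built, and the cause of the other moves was not tested.

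The 6 arrays (pyloric replicates 2 and 4 and colonic replicate 2, both gates) were chosen after seeing the data, from replicate numbers with a Defa24 level above 9, so they say nothing independent about Defa24. Between organs and in DTR and WT, equal replicate numbers were not shown to pair samples, and the block moved no call there beyond those above and Defa24, which was called against colon in Lgr5Hi cells (adjusted p = 0.0124) and against pylorus in Lgr5Lo cells (adjusted p = 0.019), and Mptx2, called lower in crypts and higher in DTR Lgr5Hi than Lgr5Neg cells. With 2 small intestinal arrays a group, a log2 array near its upper range and no detection calls, small differences there and levels under the array median have little precision.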
